A study of Mus musculus with 23 samples.

Results

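Sptb, Ank1, Epb42, Slc4a1, Add2, Rhag, Rhd, and Kel encode proteins of the red cell membrane and of the protein network beneath it. They were chosen by gene symbol, all 8 were found among the 17644 genes of the TPM table, and all 8 passed the filter on low counts. RNA-Seq had been done on marrow-depleted tibia and femur of 23 female C57BL6/N mice at 11 weeks of age, with 1 library per mouse. Of these, 5 mice formed WT Control and 6 each formed WT T1D, KO Control, and KO T1D. KO stands for global loss of Sarm1, the NAD-cleaving enzyme that drives axon degeneration. T1D mice had been injected with streptozotocin, which kills pancreatic beta cells, at 100 mg/kg on 2 or more days and were studied after 3 weeks of diabetes, whereas Control mice had received saline only. The study used WT littermates of the KO mice and also bought WT mice of the same background. The labels do not say of which kind the sequenced WT mice were, or whether both were among them.

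The red cell has no nucleus and no inner skeleton, so its shape rests on a lattice of spectrin tied to the membrane. One set of ties runs through ankyrin and the Epb42 protein to band 3, the anion exchanger that carries bicarbonate out of the cell in trade for chloride. A second set lies where short actin filaments, capped by adducin, hold spectrin ends together. The Rh proteins and the Kell glycoprotein sit in or near these complexes. Erythroblasts, the nucleated precursors in marrow, make these mRNAs as they mature, and inherited loss of spectrin, ankyrin, band 3, or the Epb42 protein gives rise to fragile round red cells.

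Libraries held 16938101 to 20135592 counts. The targeted gene, Sarm1, had a mean of 1.17 CPM (counts per 1000000, scaled with edgeR's TMM factors; range 0.846 to 1.76) in WT Control and 0.799 (0.268 to 1.57) in KO Control. It had 0.687 CPM (0.34 to 1.21) in WT T1D and 1.19 (0.811 to 1.46) in KO T1D, so the mean was lower with the KO label in Control mice and higher in T1D mice. The ranges overlapped, and with 5 to 32 counts per mouse Sarm1 did not separate the genotypes. These counts cover the whole gene and do not separate a disrupted transcript from an intact one, so genotype is used here as labelled. All 12 osteoblast and osteocyte markers and 11 of 12 erythroid markers passed the filter, so the libraries held RNA of bone and of red cell precursors despite the removal of marrow. In 2 of the 6 WT T1D mice, A3905 and A3906, the osteoblast and osteocyte markers summed to 6477 and 5050 CPM, against 53250 to 118400 in the other 21 mice, and markers of other cells stood apart in these 2 mice as well. Mice whose IDs begin with A17 were all WT (1 Control and 3 T1D), and all other IDs begin with A36 to A39. All A36 mice were labelled KO and all A39 mice WT, and A37 held 1 Control mouse of each genotype. Genotype and ID series were thus nearly the same split, and the labels do not say what the series stand for. Results that rest on these mice are given with and without them.

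The genes lie on 7 chromosomes of GRCm38.p6. Slc4a1 spans chr11:102348820-102365281 on the minus strand, 23.9 Mb from Sarm1 on the same chromosome. Sptb spans chr12:76580488-76710547 on the minus strand, Ank1 chr8:22974836-23150501 on the plus strand, and Epb42 chr2:121017891-121036877 on the minus strand. Add2 lies at chr6:86028681-86124409 on the plus strand and Kel at chr6:41686329-41704334 on the minus strand. Rhag lies at chr17:40811099-40844094 and Rhd at chr4:134864536-134896172, both on the plus strand. Sptb overlaps Plekhg3 on the opposite strand (49.3 CPM on average), and Ank1 and Add2 each overlap an annotated antisense gene. Because no source used here says whether strand was used in counting, reads of Sptb and Plekhg3 cannot be told apart with certainty. Ank1 and Sptb are also made in skeletal muscle from other promoters, and gene counts do not tell these transcripts from the erythroid ones.

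Band 3 had by far the most mRNA per unit length. Over all 23 mice, mean TPM (transcripts per 1000000, corrected for length) were 1030 for Slc4a1, 174 for Rhd, 122 for Kel, 94.9 for Rhag, 85.3 for Epb42, 64.4 for Ank1, 36.7 for Add2, and 34.3 for Sptb. The partners of the band 3 complex were thus made from unequal amounts of mRNA, with 14.6 to 18.9 Slc4a1 TPM for each Ank1 TPM in KO T1D and 12 to 16.2 in WT Control. Slc4a1 stood above Rhd, Rhd above Kel, Epb42 above Ank1, and Ank1 above Add2 in 23 of 23 mice. Kel exceeded Rhag in 21 mice, Add2 exceeded Sptb in 19, and Rhag exceeded Epb42 in 17, so that the last pair was not ordered beyond the spread between mice. Rhag was the most variable, with a coefficient of variation of 25.1% over all mice, against 10.5% for Rhd.

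**Figure D1:**
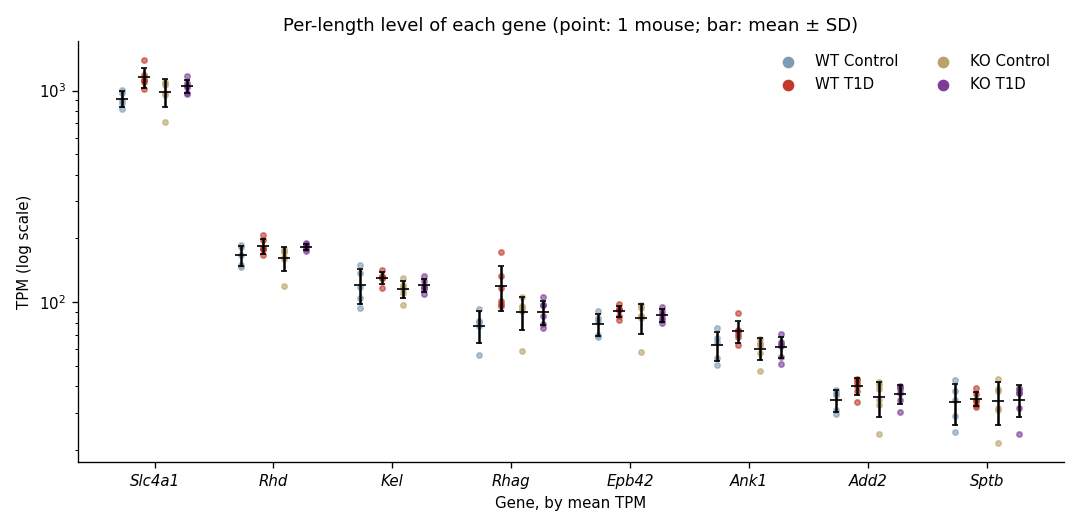
TPM on a log axis for each gene, ordered by mean level, with 1 point per mouse in the 4 groups and bars for the group mean ± SD. Slc4a1 lies at 712 to 1399 TPM, above all other genes, and Sptb and Add2 share the lowest range.

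The first question was whether diabetes changed these genes in WT bone. Rhag, Slc4a1, and Epb42 rose in WT T1D, by 1.92-fold, 1.56-fold, and 1.42-fold, and the other 5 genes had estimates of 1.28-fold to 1.46-fold that did not pass. Thus 3 of 8 passed at an adjusted p under 0.05 in edgeR's quasi-likelihood test (Benjamini-Hochberg over 14364 genes), and all 3 rose. For comparison, 2.33% of all genes passed, 1.5% upward. The median log2 fold change of the 8 genes was 0.51, against -0.01 over all genes, and 8 of 8 had an unadjusted p under 0.05 with a positive estimate (11.0% of all genes). In a bulk sample, more cells of a type and more RNA per cell cannot be told apart.

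Rhag encodes the Rh-associated glycoprotein, an ammonium and gas channel without which the Rh complex does not reach the membrane. Its CPM in WT Control was 155.9 in A1757, 119.2 in A3767, 110.5 in A3903, 124.5 in A3904, and 84.7 in A3907. In WT T1D it was 162 in A1764, 210.0 in A1787, 191.6 in A1758, 291.2 in A3905, 361.7 in A3906, and 157 in A3909. All 6 diabetic mice lay above every WT Control mouse, although A3909 and A1757 nearly met, and A3906 and A3905 were the highest. The log2 fold change was 0.94 (SE 0.20, 95% CI 0.53 to 1.36, adjusted p = 0.0367, edgeR).

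Slc4a1 encodes band 3. WT Control mice had 3270, 2952, 2588, 2702, and 2464 CPM (A1757, A3767, A3903, A3904, and A3907). WT T1D mice had 3448, 3960, 4449, 4882, 5884, and 3585 CPM (A1764, A1787, A1758, A3905, A3906, and A3909). Here too the groups did not overlap, and A3906 was again the highest. Slc4a1 and Rhag were 2 of 8 genes with no overlap in this direction, which held for 1.32% of all genes. The log2 fold change of Slc4a1 was 0.64 (SE 0.14, 95% CI 0.35 to 0.94, adjusted p = 0.0367, edgeR).

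Epb42 encodes a relative of the transglutaminases without enzyme activity that binds band 3 and ankyrin. Its CPM was 252.7, 208.3, 197.6, 178.0, and 177.4 in WT Control, in the same order of mice. In WT T1D it was 232.9, 300.7, 295.6, 320.4, 330.0, and 250. The groups overlapped, since A1764 and A3909 lay below A1757, and 4 of 6 diabetic mice exceeded every control. The log2 fold change was 0.51 (SE 0.13, 95% CI 0.24 to 0.77, adjusted p = 0.046, edgeR).

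**Figure D2:**
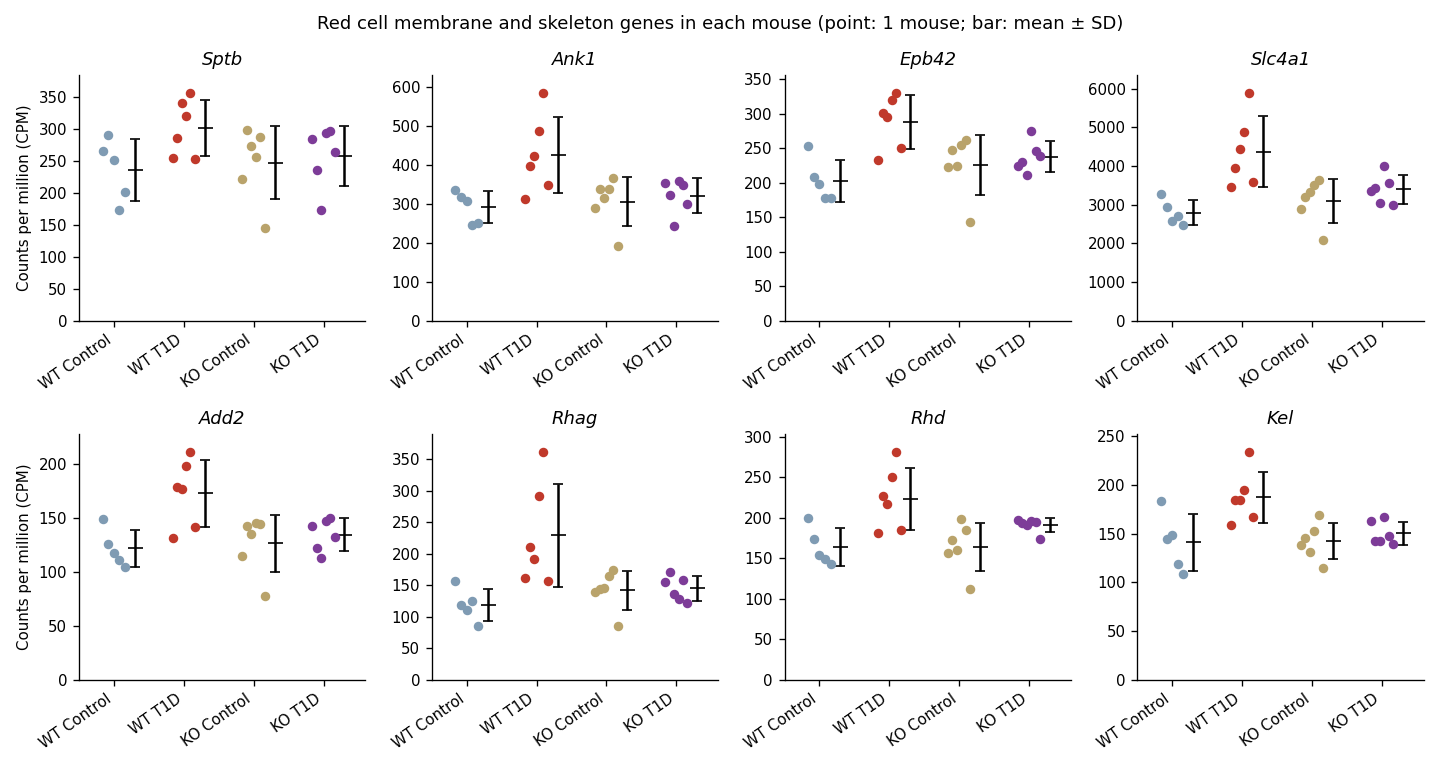
CPM of the 8 genes on linear axes that start at 0, with 1 point per mouse and bars for the group mean ± SD. WT T1D and WT Control do not overlap for Slc4a1 and Rhag, and 1 KO Control mouse (A3766) is the lowest of its group for every gene.

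Ankyrin and the spectrin lattice were the next in line. Ank1, the anchor between spectrin and band 3, had 245.3 to 336.8 CPM in WT Control (median 306.6) and 314 to 585.1 in WT T1D (median 411.3), and 5 of 6 diabetic mice exceeded every control. Its log2 fold change was 0.55 (SE 0.16, edgeR adjusted p = 0.0578). Add2, the beta adducin that caps actin filaments and recruits spectrin to them, had 105 to 149.6 CPM in WT Control and 131.7 to 211.5 in WT T1D, with a log2 fold change of 0.50 (SE 0.14, edgeR adjusted p = 0.0562). Sptb, the beta spectrin of red cells, had the smallest estimate of the 8. It had 173.3 to 291 CPM in WT Control and 253.1 to 356.6 in WT T1D, with 3 of 6 diabetic mice above every control and a log2 fold change of 0.35 (95% CI 0.0047 to 0.70, edgeR adjusted p = 0.219).

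The other 2 blood group genes were close to the threshold. Rhd, the Rh polypeptide that assembles with Rhag, had 142.6 to 200.2 CPM in WT Control and 181.2 to 281.5 in WT T1D, with a log2 fold change of 0.45 (SE 0.12, edgeR adjusted p = 0.0524). Kel, a zinc endopeptidase of the cell surface that can process endothelins, had 108.4 to 183.3 CPM in WT Control and 158.6 to 233.9 in WT T1D, with a log2 fold change of 0.41 (SE 0.12, edgeR adjusted p = 0.0585). For each of these genes 4 of 6 diabetic mice exceeded every control. Rhag and Rhd, whose products form 1 complex, did not have equal estimates. The ratio of Rhag to Rhd TPM was 0.382 to 0.537 in WT Control and 0.547 to 0.827 in WT T1D. It was 0.490 to 0.604 in KO Control and 0.424 to 0.571 in KO T1D, so that both groups labelled KO overlapped with each WT group. The 2 WT groups did not overlap in this ratio, but Rhag entered it because of its fold change, so it was not tested.

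These calls depended on single mice, whereas each of the 8 estimates stayed above 0 in every alternative fit. Leaving out 1 mouse at a time, edgeR called 0 of 8 without A3767, A3903, A3904, A3907, A1787, A3905, or A3906, 7 of 8 without A1757, A1764, A3909, or A3766 of KO Control, and 2 or 3 without any other mouse. The same fits called 0.0% to 0.209% of all genes where 0 of 8 passed, 0.48% to 3.75% where 2 or 3 did, and 4.02% to 8.80% where 7 did. Without A3905 and A3906, 0 of 8 genes passed in edgeR (smallest adjusted p = 0.288), as did 0 of all 14364 genes. In that fit 7 of 8 had an unadjusted p under 0.05 (11.0% of all genes), and estimates were 0.26 to 0.60. Those of Rhag, Slc4a1, and Epb42 were then 0.60, 0.46, and 0.41. Within the A36 to A39 mice (4 Control and 3 T1D), which keep those 2 mice, 7 of 8 passed, all but Sptb, with estimates of 0.45 to 1.31, as did 15.4% of all genes. Among A17 mice, with 1 Control mouse, no test was run. There, Slc4a1 and Rhag exceeded that mouse in 3 of 3 diabetic mice, and each of the other 6 genes did so in 2 of 3.

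The tool and the unit mattered as well. DESeq2 on the same counts called 7 of 8, all but Sptb (6.98% of all genes). In limma on log2(TPM + 1), 2 of 8 passed (Slc4a1 and Rhag, each with 6 of 6 diabetic mice above every control) and log2 fold changes were 0.07 for Sptb to 0.61 for Rhag. On that scale the median of all genes moved by -0.24 and 35.9% of genes passed, 83 upward (0.578%) and 5071 downward (35.3%), so the 8 genes with a median of 0.21 stood further above the median gene than above 0. Hemoglobin mRNA takes a share of the same fixed total: it made up 28.5% to 36.8% of TPM in WT Control and 33.2% to 46.9% in WT T1D. The share was 23.4% to 39.2% in KO Control and 29.2% to 37.8% in KO T1D. Slc4a1 per 1000 hemoglobin TPM had medians of 3.02 (Control) and 2.87 (T1D) in WT mice and 3.30 (Control) and 3.21 (T1D) in mice labelled KO, and the ranges of all 4 groups overlapped.

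The second question was whether diabetes changed the genes in mice labelled KO. None of the 8 passed in edgeR, and adjusted p was 1.0 for each. No gene of the 14364 tested passed (0.0%), and 0 of the 8 had an unadjusted p under 0.05, against 3.15% of all genes. DESeq2 and limma on TPM also called 0 of 8. Estimates lay between 0.03 for Rhag and 0.22 for Rhd. Their sign was not stable for Rhag, which was -0.0084 with library totals only, nor without A3766, where Sptb, Ank1, Epb42, Add2, and Rhag had estimates of -0.051, -0.036, -0.025, -0.021, and -0.078. The 95% intervals ran from -0.36 to 0.46 over the 8 genes, so for none of them did they reach a change of 1.5-fold.

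Single mice show how close these groups were. Rhag had 85.8 to 173.5 CPM in KO Control (median 144.6) and 121.4 to 171.7 in KO T1D (median 145.5). Slc4a1 had 2079 to 3626 CPM in KO Control (median 3261) and 2995 to 3997 in KO T1D (median 3383). Epb42 had 143.3 to 261.4 CPM in KO Control (median 235.6) and 211.1 to 275.7 in KO T1D (median 234.3). The lowest value of each gene in KO Control came from mouse A3766, and the groups overlapped for every gene. Rhd came nearest to a difference, at 164 ± 29.7 CPM (SD, n = 6) in KO Control and 191 ± 8.94 in KO T1D, with an edgeR log2 fold change of 0.22 (SE 0.12, adjusted p = 1.0).

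**Figure D3:**
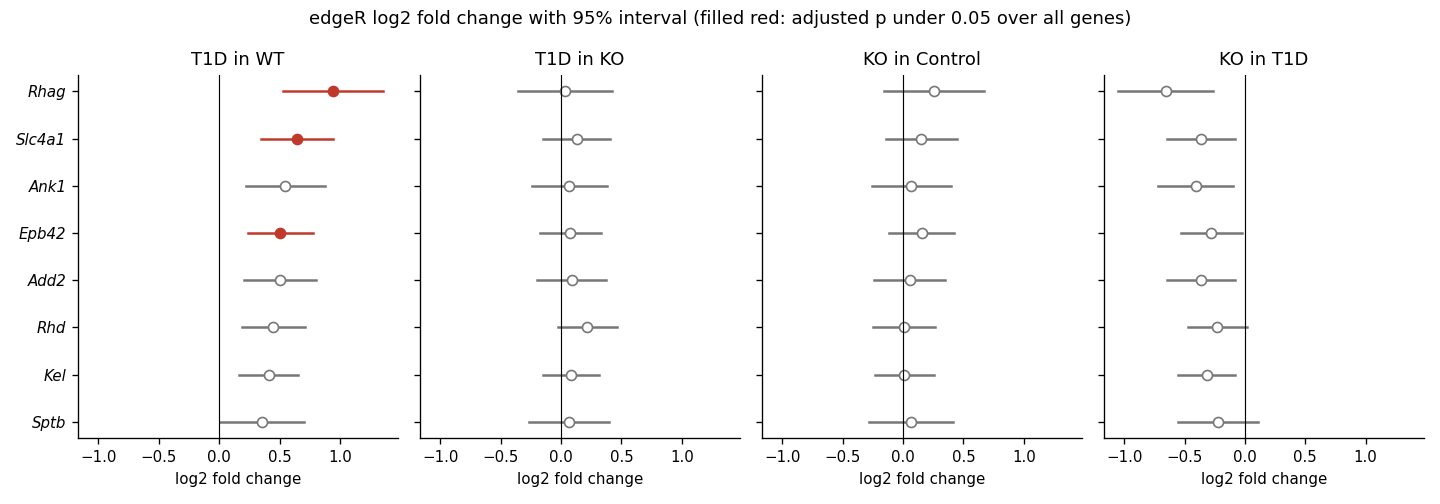
edgeR log2 fold changes with 95% intervals for the 8 genes in 4 comparisons, with genes ordered by their change with diabetes in WT mice. Filled red points passed an adjusted p under 0.05, which only Rhag, Slc4a1, and Epb42 did, in WT mice.

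The change with diabetes in mice labelled KO minus that in WT mice was tested directly as an interaction. It was negative for 8 of 8 genes, from -0.91 for Rhag to -0.23 for Rhd, except that Rhd turned to 0.04 on the TPM scale. None passed in edgeR (smallest adjusted p = 0.479), as held for all genes (0.0%), and DESeq2 and limma on TPM also called 0 of 8. An unadjusted p under 0.05 was found for 5 of 8 (Rhag, Slc4a1, Epb42, Ank1, and Add2), against 10.2% of all genes. For Rhag the interaction was -0.91 (SE 0.28, 95% CI -1.48 to -0.34), and without A3905 and A3906 it was -0.57. The calls in WT mice are therefore not shown to differ from the lack of calls in mice labelled KO.

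The genotypes were then compared directly. In Control mice 0 of 8 genes passed in edgeR (0.0278% of all genes did), 0 of 8 had an unadjusted p under 0.05 (4.8% of all genes), and DESeq2 and limma on TPM called none. Estimates were 0.0049 for Rhd to 0.26 for Rhag, and those of Ank1, Rhd, and Kel turned to -0.05 on the TPM scale, while those of Sptb, Rhd, and Kel fell below 0 in some fits with 1 mouse left out. In T1D mice all 8 genes had lower estimates with the KO label, from -0.66 for Rhag to -0.22 for Sptb. Of these, 0 of 8 passed in edgeR (0.0905% of all genes did), and 6 of 8 had an unadjusted p under 0.05 (17.1% of all genes). DESeq2 called Rhag alone (1.66% of all genes). On log2(TPM + 1), limma called none of the 8, where 7.89% of all genes were higher and 0.223% lower with the KO label. Rhag had 157 to 361.7 CPM in WT T1D (median 200.8) against 121.4 to 171.7 in KO T1D, with a log2 difference of -0.66 (SE 0.19, edgeR adjusted p = 0.132). Among mice with A36 to A39 IDs, 4 of 8 passed (Ank1, Slc4a1, Rhag, and Kel, where 10.7% of all genes did). All KO T1D mice had A36 IDs and no WT T1D mouse did, so genotype and ID series cannot be told apart here. Without A3905 and A3906 none of the 8 had an unadjusted p under 0.05 in edgeR, against 6.47% of all genes in that fit. This comparison shares the WT T1D mice with the first and the KO T1D mice with the second.

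Across mice, the 8 genes moved together. Over the 28 pairs of genes, Pearson's r of log2 CPM over 23 mice was 0.682 to 0.966 with a median of 0.901, and after subtracting group means it was 0.585 to 0.954 with a median of 0.861. Ank1 and Add2 were the most alike, whereas Sptb and Rhag were the least alike. These values share library and depth and come from 1 mixed tissue, so they are descriptions. The mean z score, which is the average over the 8 genes of the distance from each gene's mean in SDs, was highest in A3906 (2.18) and A3905 (1.57) and lowest in A3766 of KO Control (-2.26). Of WT T1D, A1764 lay at -0.0027 and A3909 at 0.20, below A1757 of WT Control at 0.30. By the same measure, the genes most like the 8 were Car2 (r = 0.962), the cytosolic carbonic anhydrase that feeds bicarbonate to band 3, then Tspan33 (0.96), Abcb10 (0.956), Slc43a1 (0.955), and Ranbp10 (0.955).

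**Figure D4:**
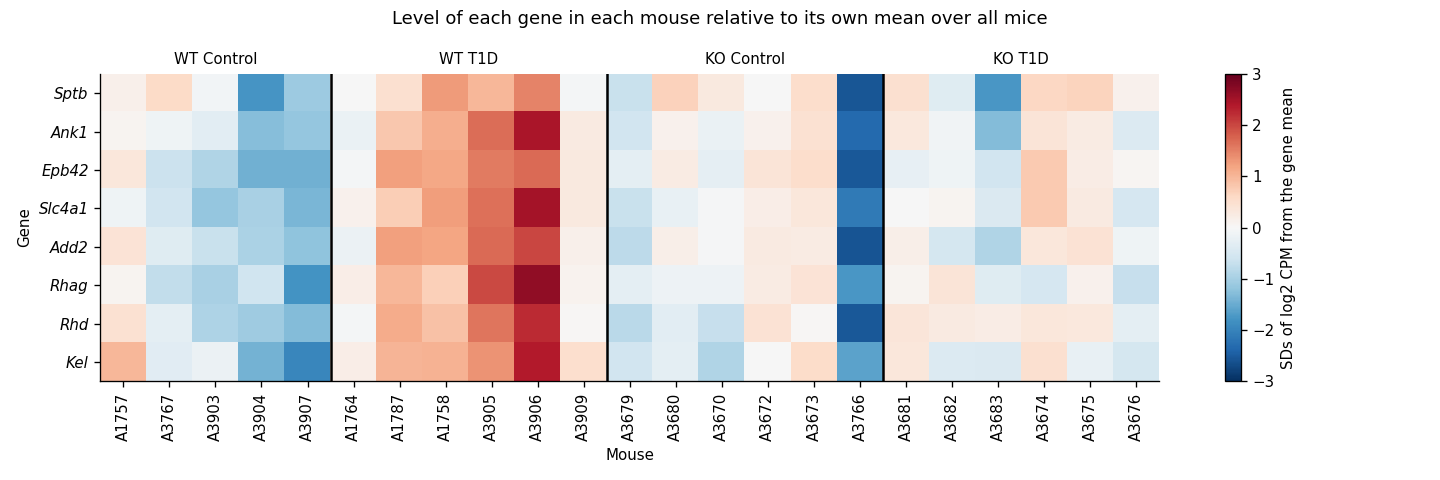
Each gene in each mouse as SDs of log2 CPM from the gene's mean over 23 mice, with mice in columns by group. The columns of A3905 and A3906 are red and that of A3766 is blue for all 8 genes.

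Because the genes moved together, their promoters were read for 2 kinds of letters known from erythroid genes. GATA1, the leading erythroid transcription factor, binds AGATAA or TGATAA, and the erythroid factor KLF1 binds CACCC boxes, searched here as CCNCNCCC. Both strands of the 250 bases before the start of each RefSeq promoter entry (GRCm38.p6) were searched, and 6 of 8 genes had an entry, all but Ank1 and Slc4a1. The GATA letters were in 4 of 6 (Epb42, Rhd, Kel, and Rhag) and in 16.6% of 32851 windows of the same length. CCNCNCCC was matched in the other 2, Add2 and Sptb, and in 45.9% of all windows. Among these matches, CACCC itself occurs only in that of Sptb at 96 bases before the start, CCACCCCC. Those of Add2 do not hold it on either strand. The match of Rhag, 31 bases before the start of its entry, fell inside the gene's annotated span. Stretches with the matches are printed 5′ to 3′ on the strand of the gene, because they separate the 3 genes with the GATA letters outside the gene from the adducin and spectrin genes. Capitals mark the matched letters on either strand, and neighbouring matches of CCNCNCCC overlap in Add2 and in Sptb, where these letters also fit the GC boxes of other factors. The stretches lie at chr4:134864406-134864535 (plus) for Rhd, chr6:41704335-41704455 (minus) for Kel, chr2:121036998-121037127 (minus) for Epb42, chr6:86028551-86028680 (plus) for Add2, and chr12:76710548-76710677 (minus) for Sptb.
Rhd: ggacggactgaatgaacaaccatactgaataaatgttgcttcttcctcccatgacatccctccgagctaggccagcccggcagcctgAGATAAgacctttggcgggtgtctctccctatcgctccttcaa
Kel: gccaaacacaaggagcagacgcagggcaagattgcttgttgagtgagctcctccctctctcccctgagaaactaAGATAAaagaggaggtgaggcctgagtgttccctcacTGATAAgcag
Epb42: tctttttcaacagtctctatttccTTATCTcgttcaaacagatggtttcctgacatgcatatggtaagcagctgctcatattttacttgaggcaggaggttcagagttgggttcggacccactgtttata
Add2: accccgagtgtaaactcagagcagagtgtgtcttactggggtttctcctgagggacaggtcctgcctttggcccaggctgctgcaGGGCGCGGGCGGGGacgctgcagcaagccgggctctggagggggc
Sptb: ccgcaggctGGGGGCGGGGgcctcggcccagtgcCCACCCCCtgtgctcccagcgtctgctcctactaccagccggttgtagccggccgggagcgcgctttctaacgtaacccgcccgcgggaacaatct

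In Rhd the match starts 43 bases before the start, in Kel there are matches at 56 and 19 bases, and in Epb42 the match lies further out, at 226 bases. The genes with the GATA letters include Rhag and Epb42, which rose in WT T1D, and Rhd and Kel, which did not pass. Letters alone do not show binding, and no binding was measured here.

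Other genes of the red cell membrane rose in part in WT mice. Of 28 such genes, 8 rose and 0 fell in WT T1D (edgeR, adjusted p under 0.05), with a median log2 fold change of 0.34 against -0.01 for all genes. Of all genes, 1.5% rose and 0.828% fell. Estimates were above 0 for 22 of the 28 and below 0 for 6, including Actb (-0.20), Slc2a1 (-0.20), and Piezo1 (-0.18), none of which passed. The genes that rose included Epb41 (0.65), which locks spectrin to actin, Tmod1 (0.59), which caps the other end of the actin filaments, and Mpp1 (0.38), a scaffold that binds the Epb41 protein. Also among them were Stom (0.55), the membrane protein stomatin, Ermap (0.51), the Scianna blood group protein, Aqp1 (0.64), the water channel, and Abcb6 (0.43), a porphyrin transporter. Xk, the partner of Kel, had an estimate of 0.54 (adjusted p = 0.0524, edgeR) and did not pass. On log2(TPM + 1), 4 of the 28 rose and 5 fell, with a median of 0.06 against -0.24 for all genes (0.578% of all genes rose and 35.3% fell).

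Of 14 widely expressed relatives of the 8 genes, 0 passed in edgeR and 0 in DESeq2, 4 had an unadjusted p under 0.05 (2 higher and 2 lower), and the median was -0.13. Of all genes, 2.33% passed in edgeR and 6.98% in DESeq2, and 22.2% had an unadjusted p under 0.05 in edgeR. Sptbn1, the spectrin of other cells, had an estimate of -0.11, Slc4a2, the anion exchanger of osteoclasts and many other cells, of -0.09, and Ank3 of -0.32. Add1 (0.18) and Add3 (0.24), the other adducins, lay above 0 without passing (unadjusted p of 0.026 and 0.015, edgeR), and both also stand among the 28 membrane genes. Sptan1 (-0.20) and Tgm1 (-0.50) lay below 0 without passing (unadjusted p of 0.023 and 0.0098, edgeR). On log2(TPM + 1), 0 of 14 rose and 6 fell, with a median of -0.34, where 0.578% of all genes rose and 35.3% fell. The difference between the 2 lists was not tested.

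Other erythroid gene groups rose in part with the 8 genes in WT T1D. Of 12 regulators and receptors 2 rose, Nfe2 (0.52) and Epor (0.48), while Klf1 (0.56, adjusted p = 0.0613, edgeR) and Gata1 (0.43, adjusted p = 0.0925, edgeR) did not pass. Of 5 hemoglobin genes tested, Hbb-bs (0.89) and Hba-a1 (0.69) rose, and near-identical copies may share reads. Of 10 genes of heme synthesis 3 rose, including Cpox (0.54) and Fech (0.68). Of 12 genes of late maturation 6 rose, including Car1 (1.77) and Car2 (0.63), both carbonic anhydrases, and Bnip3l (0.46), which clears mitochondria. Epb41 stands in this list as well as among the membrane genes. None of these lists had a gene that fell. Of all genes, 1.5% rose and 0.828% fell in the same test. Without A3905 and A3906, 0 genes of any of these lists passed in edgeR, as did 0 of all genes. Unadjusted p was then under 0.05 for 15 of 28 membrane genes, 6 of 12 regulators, 4 of 5 hemoglobin genes, 7 of 10 heme genes, and 9 of 12 late genes, against 11.0% of all genes. In mice labelled KO, 0 genes of these lists passed for diabetes in edgeR (0.0% of all genes) and 0 had an unadjusted p under 0.05 (3.15% of all genes).

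Markers of other cells moved with the 8 genes in part. Of 12 osteoblast and osteocyte markers, 2 fell in WT T1D (Ibsp, -0.78, and Runx2, -0.66), with a median of -0.74, and none rose (of all genes, 0.828% fell and 1.5% rose in edgeR). Their summed CPM was 60870 to 118400 (median 94360) in WT Control and 5050 to 85540 (median 65890) in WT T1D. In mice labelled KO it was 53250 to 107200 without and 70630 to 106400 with diabetes. The 2 mice with the lowest sums, A3906 and A3905, had the highest mean z scores of the red cell membrane genes. A3905 and A3906 also had the highest neutrophil sums (45070 and 41150 CPM, against at most 38520 in other mice), the lowest B cell sums (181.0 and 220.4, against at least 427.9), and the lowest megakaryocyte sums (1002 and 1024, against at least 1385). Across 23 mice the mean z score had r = -0.71 with the osteoblast and osteocyte markers and r = 0.919 with 11 erythroid markers, as a description. It had r = 0.228, -0.253, -0.317, and -0.268 with neutrophil, B cell, megakaryocyte, and macrophage markers. With 3 neuronal markers r was -0.689, but these summed to only 4.63 to 16.6 CPM. Their lowest sums were also those of A3906 (4.63) and A3905 (6.11). Each r used the log2 of the summed CPM of the markers. The erythroid sum was mostly hemoglobin mRNA. Its median was 103400 CPM in WT Control, where the 5 hemoglobin genes tested had a median sum of 100900. The part of these markers in the result was not tested. Without those 2 mice, 0 of the 12 osteoblast markers passed in edgeR (0 of all genes did), with a median of -0.38, and the median of the 8 genes was 0.36.

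Muscle was measured because Ank1 and Sptb have muscle transcripts. None of 12 skeletal muscle markers passed for diabetes in WT mice (edgeR, 0 with an unadjusted p under 0.05, 0 in DESeq2), with a median of 0.12. In T1D mice 0 of 12 passed for genotype in edgeR, but 12 of 12 had lower estimates with the KO label (median -1.15). For diabetes in mice labelled KO and for genotype in Control mice, 0 passed and 11 of 12 were lower, with medians of -0.49 each. The part of muscle RNA in the estimates of Ank1 and Sptb was not tested. The muscle markers summed to 1673 to 10860 CPM in WT Control and 2819 to 6591 in WT T1D, and to 855.8 to 10260 without and 262 to 5328 with diabetes in mice labelled KO, and the mean z score had r = 0.0751 with them. Neutrophil, B cell, megakaryocyte, and macrophage markers had 0 calls in edgeR in WT T1D, with medians of 0.24, -0.16, 0.07, and -0.18, and unadjusted p under 0.05 for 2 of 10, 0 of 9, 1 of 9, and 5 of 10. Of those 5 macrophage markers 1 was higher and 4 were lower, and the neutrophil and megakaryocyte ones were higher. DESeq2 called 1 of the 10 macrophage markers and none of the other 3 lists. Of 6 neuronal markers 3 were tested and 0 passed (0 with an unadjusted p under 0.05). Over all genes in WT T1D, 2.33% passed in edgeR, 22.2% had an unadjusted p under 0.05 there, and 6.98% passed in DESeq2.

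**Figure D5:**
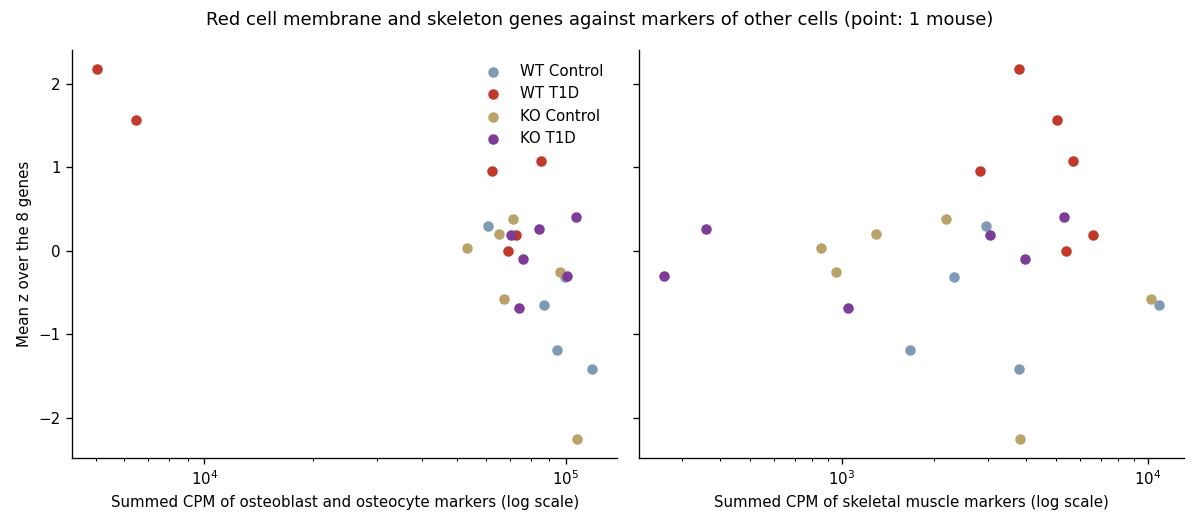
Mean z score over the 8 genes against the summed CPM of 12 osteoblast and osteocyte markers (left) and of 12 skeletal muscle markers (right), both on log axes, with 1 point per mouse. A3905 and A3906 lie apart at the left of the first panel, at 6477 and 5050 CPM, and at the top.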

How the data were processed

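RNA from 23 bone samples was sequenced by the study as oligo dT libraries marked with dUTP, with paired-end DNBSEQ reads. The authors filtered reads with SOAPnuke, aligned them with HISAT and Bowtie2 to GRCm38.p6, and deposited RSEM expected counts rounded to whole numbers. They also deposited TPM values from the sequencing provider, which sum to 1000000 in each WT mouse and to 999993 to 999997 in mice labelled KO. The 8 genes and all gene lists were chosen with earlier results of these data known. In the count table, 33212 entries with non-numeric identifiers held 0 counts.

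The 14364 genes that reached 10 counts in 5 or more mice were fitted in edgeR 4.0.16 (R 4.3.3) with TMM factors and 4 group means over all mice, and contrasts were tested with the two-sided quasi-likelihood test, Benjamini-Hochberg adjusted over all genes at 0.05. Each SE is the log2 fold change divided by the root of F. CPM uses TMM-scaled library sizes. Correlations used log2(CPM + 0.5). Alternatives were DESeq2 1.42.0, limma 3.58.1 on log2(TPM + 1) and log2(TPM + 0.1), RLE factors, library totals, hemoglobin genes removed, no low-count filter, only the groups compared, the A36 to A39 mice, the mice without A3905 and A3906, and each mouse left out. The edgeR, DESeq2, and limma tests were run on simulated counts with changes placed in WT T1D alone. There limma was run on counts scaled to the library total rather than on TPM. The other alternatives were not simulated. Mouse IDs were not shared between groups, so nothing was paired. That mice are separate animals comes from their IDs, and intervals cover the spread between mice. The named genes are the 8, Sarm1, the 5 genes most like them, and members of the lists. Some genes of the lists are counted but not reported by name here.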

Additional observations from a re-analysis of the deposited data

Results flagged for a closer look

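In groups of 4 to 10 mice, a mouse was singled out when its gap to the nearest mouse was large against the range of its group (Dixon's 95% critical value). Of 32 groups of values of the 8 genes, 2 had such a mouse, and chance alone gives about 1 in 20. Epb42 in KO Control had its lowest CPM, 143.3, in mouse A3766, with a gap of 0.669 of the range. Rhd in KO T1D had its lowest CPM, 173.2, in mouse A3676, with a gap of 0.749 of the range.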

How the results depend on the processing

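No paired analysis was possible because no mouse ID was shared between groups. For diabetes in WT mice, 3 of the 8 genes passed in edgeR, against 7 in DESeq2, 7 within the A36 to A39 mice, 0 with only the 2 groups fitted (smallest adjusted p = 0.175, 8 of 8 with an unadjusted p under 0.05), 0 without A3905 and A3906, and 0 to 7 when 1 mouse was left out. For KO against WT in T1D mice, 0 passed in edgeR, against 1 in DESeq2 and 4 within the A36 to A39 mice. No alternative changed the count of 0 for diabetes in mice labelled KO, the interaction, or the genotypes in Control mice. The cause of these shifts was not tested.

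Signs turned only in estimates that did not pass. For diabetes in mice labelled KO, Rhag was -0.0084 with library totals only. Leaving out 1 mouse gave -0.051 to 0.16 for Sptb, -0.036 to 0.14 for Ank1, -0.025 to 0.12 for Epb42, -0.021 to 0.13 for Add2, and -0.078 to 0.098 for Rhag, and in each case the lowest value came without A3766. The interaction of Rhd was 0.037 on both TPM scales. For KO against WT in Control mice, both TPM scales gave -0.045 and -0.046 for Ank1, -0.046 and -0.047 for Rhd, and -0.049 for Kel, and leaving out 1 mouse gave -0.029 to 0.18 for Sptb, -0.063 to 0.093 for Rhd, and -0.070 to 0.12 for Kel.

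Over all genes, 334 passed for diabetes in WT mice, against 1002 in DESeq2, 5154 and 5173 on the TPM scales with pseudocounts of 1 and 0.1, 88 with no low-count filter, 2205 within the A36 to A39 mice, 0 with only the 2 groups, 0 without A3905 and A3906, and 0 to 1264 when 1 mouse was left out. In T1D mice 13 differed by genotype, against 239 in DESeq2, 3 with no low-count filter, 5 with RLE factors, 4 with only the 2 groups, 4 without A3905 and A3906, 3 to 95 when 1 mouse was left out, 1166 and 1185 on the TPM scales, and 1538 within the A36 to A39 mice. Counts of the 8 genes were 1411 or more in every mouse, and those of Sarm1 were 5 to 32.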
